A study of Mus musculus with 2 samples.

Results

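The genes described here are the receptors of tumour necrosis factor (TNF) and the proteins that carry their signal inside the cell, a set of 10 genes named Tnfrsf1a, Tnfrsf1b, Tradd, Ripk1, Traf1, Traf2, Traf3, Traf5, Traf6 and Cflar. Every probe that the platform annotation paired with 1 of these symbols alone was taken, which gave 21 probes for 8 of the 10 genes, out of 19057 genes and 45281 probes on the array. Ripk1 and Traf3 had no such probe in the annotation used and are not analysed here. The samples were hematopoietic stem and progenitor cells of mice, sorted as Flt3-low LSK cells (lineage-negative, Sca1-positive, c-Kit-positive). There was 1 control array and 1 array labelled CA/CA, a label taken here to mean the series' transgenic mice, in which HSCs carry an IKK2 that is constitutively active. The labels give no strain, age, sex, treatment or number of mice, and do not say which promoter or Cre drives the transgene or what genotype the control had beyond its name. Since each group has 1 array, no value has a replicate error, nothing was tested, and each difference compares these 2 samples, not the genotypes in general.

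TNF is a trimeric cytokine that binds a pair of receptors. The receptor encoded by Tnfrsf1a has a death domain, which recruits the adaptor TRADD and the kinase RIPK1, and then TRAF2 or TRAF5 with ubiquitin ligases. Ubiquitin chains built there dock the TAK1 and IKK complexes, and IKK2, encoded by Ikbkb, phosphorylates the NF-kB inhibitor so that NF-kB can enter the nucleus. IKK2 therefore acts downstream of the TNF receptors and their adaptors, while NF-kB in turn induces some genes of the set, Traf1 and Cflar among the best known. In hematopoietic stem cells TNF is known both to restrain growth and to promote survival through NF-kB.

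Promoter sequences were available in the RefSeq tables of build GRCm38.p6 for 9 of the 10 genes, with 10 start sites in all, each covering 250 bases before and 50 after the start. The letters GGNNTTTCC, a short form of the NF-kB (kB) site, were searched on both strands together with the full kB consensus, and the 2 patterns can overlap. The short form was found in 5.82% of the 32851 promoters in the table and the full consensus in 4.51%. In the set, Traf2 held the short form as GGTGTTTCC at bases 33 to 41 from its start, and Traf3 held it at 2 places, where the one next to the start, GGGATTTCC, was part of the set's only match to the full consensus. The 4 promoters below belong to Tnfrsf1a and Cflar, the genes with the largest differences between the arrays, to Traf1, a textbook NF-kB target, and to Traf2. They are printed 5′ to 3′ on the gene's strand, with capitals marking the short-form match, and lie at chr6:125349473-125349772 (plus strand), chr1:58711241-58711540 (plus strand), chr2:34961723-34962022 (minus strand) and chr2:25546891-25547190 (minus strand).
Tnfrsf1a: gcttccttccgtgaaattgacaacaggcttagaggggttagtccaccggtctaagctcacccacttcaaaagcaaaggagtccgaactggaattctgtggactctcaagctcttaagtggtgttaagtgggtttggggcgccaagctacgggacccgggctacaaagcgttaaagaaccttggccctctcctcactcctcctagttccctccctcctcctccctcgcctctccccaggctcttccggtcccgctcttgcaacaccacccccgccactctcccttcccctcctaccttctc
Cflar: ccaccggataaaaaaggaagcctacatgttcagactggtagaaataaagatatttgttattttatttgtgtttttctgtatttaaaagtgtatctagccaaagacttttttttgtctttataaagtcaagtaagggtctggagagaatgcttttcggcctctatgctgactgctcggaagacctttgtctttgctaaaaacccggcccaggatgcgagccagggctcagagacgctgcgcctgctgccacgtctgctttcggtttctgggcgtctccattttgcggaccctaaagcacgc
Traf1: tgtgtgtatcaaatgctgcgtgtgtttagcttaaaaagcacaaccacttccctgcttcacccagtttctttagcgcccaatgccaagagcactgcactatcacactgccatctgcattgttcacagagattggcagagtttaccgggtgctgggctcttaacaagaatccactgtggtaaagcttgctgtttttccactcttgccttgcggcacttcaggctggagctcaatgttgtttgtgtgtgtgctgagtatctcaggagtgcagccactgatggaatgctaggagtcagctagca
Traf2: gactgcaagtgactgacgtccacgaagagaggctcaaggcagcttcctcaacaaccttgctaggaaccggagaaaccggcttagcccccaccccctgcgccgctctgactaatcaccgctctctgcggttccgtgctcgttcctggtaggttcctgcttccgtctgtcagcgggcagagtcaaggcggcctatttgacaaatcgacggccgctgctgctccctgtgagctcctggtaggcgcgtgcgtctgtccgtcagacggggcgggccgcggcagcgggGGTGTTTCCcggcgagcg
A match describes the letters only, and the absence of one in these windows says nothing about NF-kB binding.

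Values are the authors' deposited, normalized signals in array units, from which background had not been subtracted. The background mode was 81.7 units, and a probe was counted as above background at or above a floor of 92.0 units. On each array 37.0% of probes reached the floor. Of the 21 probes of the set, 13 were above the floor on both arrays, 1 on the control array only and 7 on neither. Differences are CA/CA minus control in log2(signal + 16), averaged over a gene's probes above the floor on at least 1 array. The SD between probes of 1 gene was 0.24 over 3861 genes with several such probes, and it measures probe error only. In the plot of probe signals, the lines of most probes are short beside those of the Tnfrsf1a probes.

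**Figure D1:**
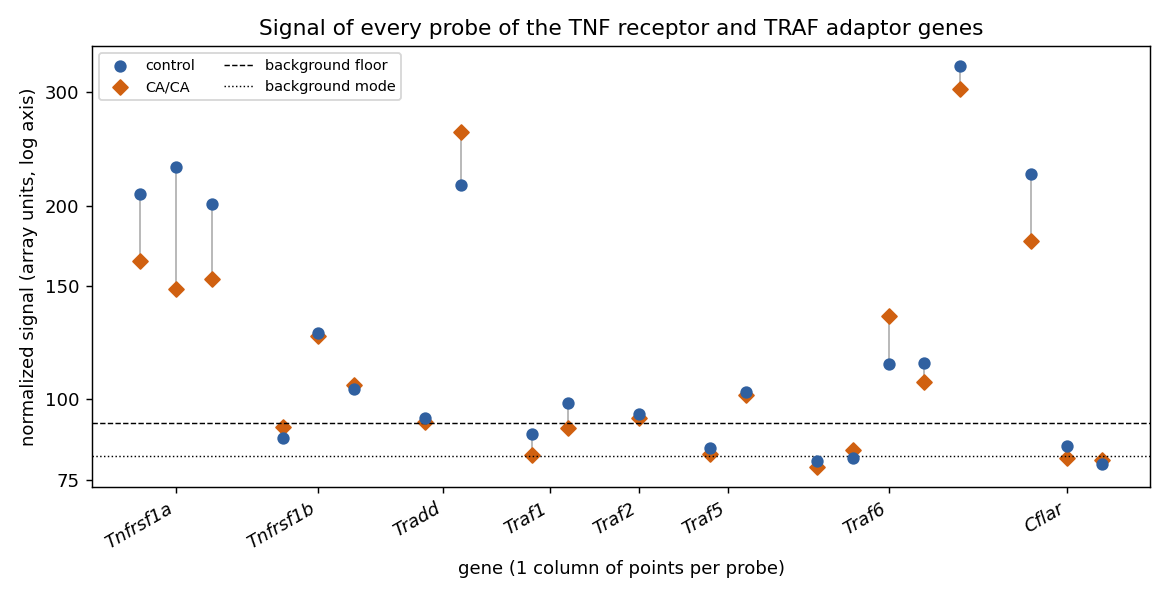
Normalized signal (array units, log axis) of the 21 probes of the set, with 1 column of points per probe, circles for the control array, diamonds for the CA/CA array, a dashed line at the floor of 92.0 and a dotted line at the background mode of 81.7. All 3 Tnfrsf1a probes and the bright Cflar probe are lower in CA/CA, and most of the others lie close to background or close to their partner.

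None of the measured genes differed 2-fold, in either direction, between the CA/CA and the control sample on the reported scale, which keeps the background. Above the floor on both arrays were 7 genes, of which 0 were higher and 0 lower by 2-fold or more, where the shares over 8500 genes were 1.31% and 1.87%. At 1.5-fold the counts were also 0 and 0, beside 4.35% and 6.31% of all genes. With shares this low, a count of 0 among 7 genes does not set the genes apart. The scale also limits these counts. A change to 2-fold more signal above background would have given at most 0.67, and to 2-fold less at lowest -0.51, both for Cflar. Neither would have been counted as 2-fold, and the drop not as 1.5-fold either, so the 2-fold counts cannot exclude such changes. With the background mode subtracted, Tnfrsf1a at -0.83, a mean over its probes, and Cflar at -0.59 were still short of 2-fold. The brightest Tnfrsf1a probe, ILMN_2469329, was then at 0.45 of its control signal, beyond 2-fold, and the other 2 probes were at 0.65 and 0.60. Above 0 were 3 of the 7 and below 0 were 4, beside 51.3% and 48.6% of all genes. Over the 8 genes above the floor on at least 1 array, the median difference was -0.02, against 0.01 over 10118 genes.

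The 2 TNF receptors had unlike measured differences, though Tnfrsf1b lay nearer to background and had less room to show one. Tnfrsf1a, the death-domain receptor found on nearly all cell types, had mean signals of 213 in control cells and 155 in CA/CA cells, a log2 difference of -0.42. Its 3 probes stood at 208, 229 and 201 in control cells and at 164, 148 and 154 in CA/CA. All 3 were lower in CA/CA, with differences from -0.58 to -0.32, each larger in size than the probe SD of 0.24. Among the 8500 genes above the floor on both arrays, 10.6% had a difference as low or lower, and 19.6% one as large in size, so Tnfrsf1a lay inside the range of many genes. With the background mode subtracted from both signals the difference was -0.83.

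Tnfrsf1b, the second TNF receptor, which lacks a death domain and binds TRAF2 directly, was at 115 on both arrays. Its probes above the floor were at 127 and 104 in control cells and at 125 and 105 in CA/CA cells. Neither differed by more than 0.02 on the log2 scale, and the gene's difference was 0.00. Its other probe, ILMN_1255973, was below the floor on both arrays. A change to 2-fold more signal above background would have given 0.32 on this scale, and a change to 2-fold less -0.19. The latter is smaller in size than the probe SD of 0.24, so these values cannot show that the receptors changed differently.

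Tradd, the death-domain adaptor that links the first receptor to TRAF2 and RIPK1, differed by 0.12, with mean signals of 155 and 176. Its 2 probes differed from each other in this. The brighter, ILMN_2505100, was at 216 in control cells and 260 in CA/CA cells, a difference of 0.26. The dimmer, ILMN_1233313, lay just over the floor, at 93.6 and 92.2.

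Traf1, Traf2 and Traf5 lay close to the background floor, and their differences were small. Traf2, the adaptor that brings the ubiquitin ligases to both TNF receptors and whose promoter is printed above, had 1 probe, at 94.98 in control cells and 93.5 in CA/CA cells. Traf5, its close relative, had 1 of 2 probes above the floor, at 103 and 102. For signals this near background the scale has little room. A change to 2-fold more signal above background would have given 0.16 for Traf2 and 0.23 for Traf5, and to 2-fold less -0.09 and -0.13. The measured differences were -0.02 and -0.01, smaller in size than these. Each of these expected values is itself smaller in size than the probe SD of 0.24, so the comparison cannot exclude a 2-fold change.

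Traf1, the NF-kB-induced adaptor that lacks the RING domain of the other TRAFs, was above the floor in the control only. Its brighter probe, ILMN_1253947, which the annotation ties to a cDNA clone and not to a RefSeq transcript, was at 98.9 in control cells and 90.3 in CA/CA cells, at least 1.07-fold lower. The other probe, at 88.4 and 82.0, was below the floor on both arrays. Both probes were lower in CA/CA, the sample with active IKK2, by differences of -0.11 and -0.09. A drop to 2-fold less signal above background would have given -0.11 for this gene, the value measured, and both differences are smaller in size than the probe SD of 0.24.

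Traf6 acts downstream of interleukin-1 and Toll-like receptors and of some TNF receptor relatives, and not of the TNF receptors themselves. Its mean signals over 3 probes were 186 in control cells and 181 in CA/CA cells, a difference of 0.01. The brightest probe, ILMN_2960750, was at 329 and 303. ILMN_2427560 was at 114 and 106, and ILMN_1259162 at 113 and 135. The first pair of probes was lower in CA/CA and the third higher, with differences from -0.11 to 0.22, so the gene's mean is near 0 by balance and its sign depends on the probes taken. With the brightest probe alone the difference was -0.11. Its other 2 probes did not reach the floor.

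Cflar encodes c-FLIP, a caspase-8-like protein that holds back caspase-8 at death receptors and is induced by NF-kB. Its 1 probe above the floor, ILMN_2426115, was at 224 in control cells and 176 in CA/CA cells, a difference of -0.32. It was thus lower in the sample with active IKK2, and 14.7% of genes had a difference as low or lower. The annotation gives no transcript accession for that probe, and the 2 probes tied to RefSeq transcripts were below the floor on both arrays, at 84.6 and 79.5 in control cells and at 81.2 and 80.4 in CA/CA. After subtraction of the background mode the difference was -0.59, and with all 3 probes averaged it was -0.12.

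**Figure D2:**
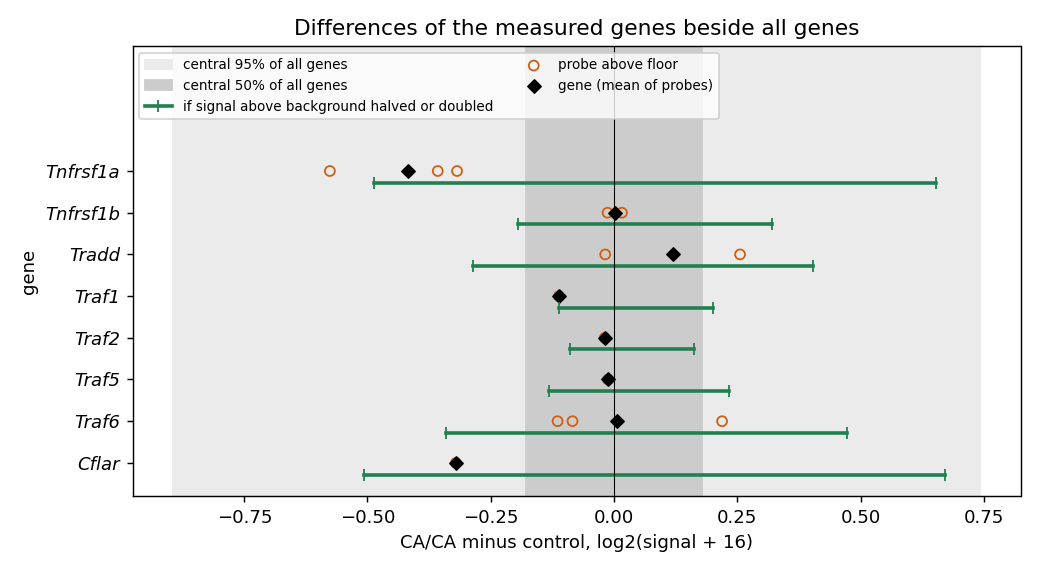
Difference CA/CA minus control in log2(signal + 16) of the 8 measured genes, with diamonds for genes and open circles for their probes above the floor. The grey bands hold the central 50% and 95% of 8500 genes, and the green bars span what 2-fold less and 2-fold more signal above background would give. Tnfrsf1a, at -0.42, and Cflar, at -0.32, lie outside the inner band, and all 8 genes lie inside the outer one.

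**Figure D3:**
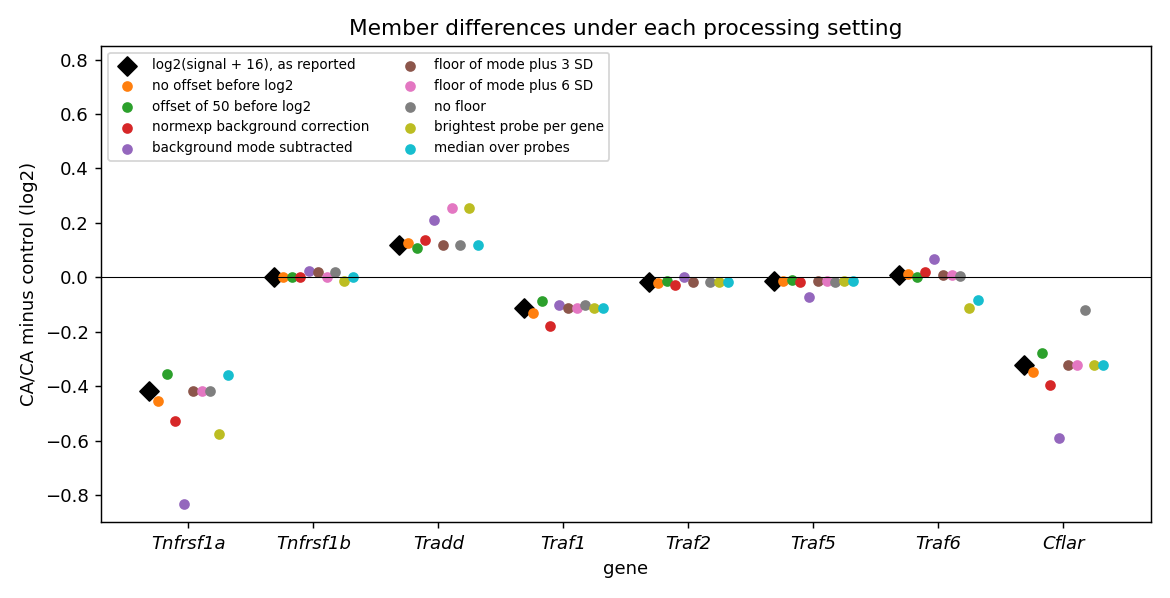
Difference CA/CA minus control (log2) of the 8 measured genes under the reported scale, shown as black diamonds, and under 9 alternative scales, floors and probe summaries, shown as coloured circles. Tnfrsf1a and Cflar lie below 0 under all of them, with Tnfrsf1a between -0.83 and -0.36, while Traf6 falls on both sides of 0.

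Other facts of the 2 samples moved alongside. Of the erythroid markers, 8 of the 10 listed were measured, 7 of them on both arrays. Of these 7, 5 were at least 2-fold higher in CA/CA, beside 1.31% of all genes. Ermap, above the floor in CA/CA only, was at least 5.28-fold higher. The summed signal of the 8 markers was 2117 in control cells and 8465 in CA/CA cells. Hba-a1, the brightest of them in control cells, was lower in CA/CA, at 1036 and 939. Of the B cell progenitor markers, 6 of 9 were measured, 5 of them on both arrays. Of these 5, 4 were at least 2-fold lower, beside 1.87% of all genes. Blnk, above the floor in the control only, was at least 3.56-fold lower. The sum over the 6 was 9586 and 979, with Pax5 below the floor on both arrays. Of the granulocyte and monocyte markers, 12 of 13 were measured, all 12 on both arrays. At least 2-fold lower were 5 of the 12, beside the same 1.87%, and the sum was 60674 and 33362. Csf1r, Ngp and Ltf of that list were higher in CA/CA, by 0.27, 0.42 and 0.62. The sum was 972 and 627 for 6 megakaryocyte markers, and all 4 above the floor on both arrays were lower. The remaining sums rested on a few bright genes and, as in the erythroid and granulocyte lists, other members differed the other way. For 8 markers of mature T and NK cells the sum was 4911 and 1894, of which Nkg7 gave 4190 and 1055, while Cd3d, Cd3e, Cd3g, Cd4 and Klrd1 were higher in CA/CA and the list median was 0.23. For 7 markers of macrophages and dendritic cells it was 803 and 1547, with H2-Eb1 at 120 and 817, while Mrc1, Adgre1 and Cd14 were lower and the median was 0.18. For 7 markers of mast cells and basophils it was 3811 and 2239, with Hdc and Prss34 at -1.45 and -1.10, while 4 members were above 0 and the median was 0.03. The part of these cell types in the lower Tnfrsf1a and Cflar signals was not tested. Fewer cells of a type and less RNA per cell cannot be told apart in such samples. Of the sort genes, Kit had mean signals of 970 and 677, with its 2 probes at -0.58 and 0.21, and Flt3 was below the floor on both arrays. Among the lineage genes, Itgam, Ptprc and Cd8a were below it on both arrays. Cd3e and Cd4 reached it in CA/CA only, at 120 and 96.3, at least 1.31-fold and 1.05-fold higher. Il7r was at 143 and 94.6, a difference of -0.47, and Ly6c1 at 3720 and 2991.

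The wider pathway was described with 6 lists of partner genes, chosen with earlier results of these arrays known. The arrays held 102 partner genes, and 79 of them reached the floor on 1 or both arrays, 68 of them on both. Of these 68, 0 were higher and 2 were lower by 2-fold or more, beside the 1.31% and 1.87% of all genes. The median over the 79 was 0.02. In the plot of the partner lists, the 2 genes beyond the 2-fold line are Map3k3 and Cd27.

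Among the ligands, 8 of 17 on the array were measured, with a median of -0.06. Tnf itself, named here after its values were seen, was at 124 in control cells and 128 in CA/CA cells. Ltb, lymphotoxin beta, the membrane anchor of the lymphotoxin heterotrimer, was at 425 and 272, a difference of -0.62. Tnfsf14, the ligand LIGHT, was at 162 and 122, its 3 probes ranging from -0.60 to -0.04. Cd70, the ligand of the receptor encoded by Cd27, was above the floor in CA/CA only, at 116, and at least 1.26-fold higher. Ltb and Tnfsf14 were thus lower and Cd70 higher in CA/CA, and 9 ligands, Lta and Fasl among them, were below the floor on both arrays.

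Other receptors of the family differed in both directions. Of 26 on the array 17 were measured, and of the 13 above the floor on both arrays 7 were above 0 and 6 below, with a list median of -0.03. Cd27, a costimulatory receptor that binds TRAF2 and TRAF5 and marks progenitors with lymphoid potential, was at 736 in control cells and 257 in CA/CA cells, a difference of -1.09. All 3 of its probes were lower, by -1.71 to -0.48. Tnfrsf21, a death receptor of the nervous and immune systems, was at 293 and 168, with probes at -0.95 and -0.19. Tnfrsf4, the T cell costimulatory receptor OX40, was higher in CA/CA, at 104 and 171, a difference of 0.64.

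The remaining TRAFs and TRAF-binding proteins had a median of -0.04 over 11 measured genes, and 0 of the 8 above the floor on both arrays differed 2-fold. Map3k14, the kinase of the non-canonical NF-kB pathway that TRAF2 and TRAF3 keep at a low protein level, was at 179 and 107. Traf3ip2, the adaptor Act1 of interleukin-17 receptors, was at 154 and 116. Trafd1, a TRAF-type zinc finger protein that dampens innate signalling and is induced by interferon, was at 296 and 391, each of its 3 probes being higher, with differences of 0.36 to 0.39. Map3k14 and Traf3ip2 were the lower and Trafd1 the higher of the 3 genes with the largest differences on that list.

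Among ubiquitin ligases and editors of the receptor complex, 19 of 21 genes were measured, 18 of them on both arrays, 9 above 0 and 9 below, with a median of 0.04. Rbck1, a subunit of the linear ubiquitin ligase LUBAC, was at 562 in control cells and 851 in CA/CA cells, a difference of 0.59. The other LUBAC subunits, Rnf31 and Sharpin, named after their values were seen, differed by 0.33 and 0.13. Each of the 3 subunits had 1 probe above the floor. All 3 were higher in CA/CA, none by 2-fold, and Sharpin by less than the probe SD of 0.24. Ube2v1, a cofactor of the enzyme that builds lysine-63-linked chains, was at 327 and 473, while Ube2n, its catalytic partner, also named afterwards, was at 257 and 233. Tnfaip3, the NF-kB-induced feedback inhibitor A20, was at 101 and 138, a difference of 0.40. Each of these genes other than Ube2n was higher in CA/CA.

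Of the TAK1 complex and the kinases recruited to ubiquitin, all 10 genes on the array were measured, 5 above 0 and 5 below, with a median of -0.01. Map3k3, the kinase MEKK3, which acts in TNF-induced IKK activation, was at 728 in control cells and 284 in CA/CA cells on its 1 probe, a difference of -1.31. Tab2, the subunit that ties TAK1 to ubiquitin chains, was at 654 and 453, a difference of -0.52. Map3k1 was at 540 and 390, its 2 probes at -0.58 and -0.12. Ikbkb was at 205 on both arrays on the 1 of its 3 probes above the floor, and the labels do not say whether that probe detects the transgene.

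The death complex list was the one whose median lay farthest from 0, at 0.16 over 14 genes, of which 11 were above 0, 3 below and 0 beyond 2-fold. Over all genes, 51.3% were above 0, and the central 50% of differences ran from -0.18 to 0.18, a range that holds this median. Casp8, the caspase that c-FLIP restrains, was at 667 in control cells and 507 in CA/CA cells, with both probes lower, at -0.41 and -0.36. Bid, a caspase-8 substrate that carries the death signal to mitochondria, was at 946 and 635, a difference of -0.56. Dedd2, a death-effector-domain protein, was at 314 and 412, a difference of 0.37. Fadd, the adaptor that joins caspase-8 to death domains, Ripk3 and Mlkl, the kinase and the effector of necroptosis, were named after their values were seen and differed by 0.09, 0.31 and 0.32. Tnfrsf1a, Cflar, Casp8 and Bid were thus lower in CA/CA, and Ripk3 and Mlkl higher, each by less than 2-fold on this scale. Tradd and Fadd, at 0.12 and 0.09, differed by less than the probe SD of 0.24.

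**Figure D4:**
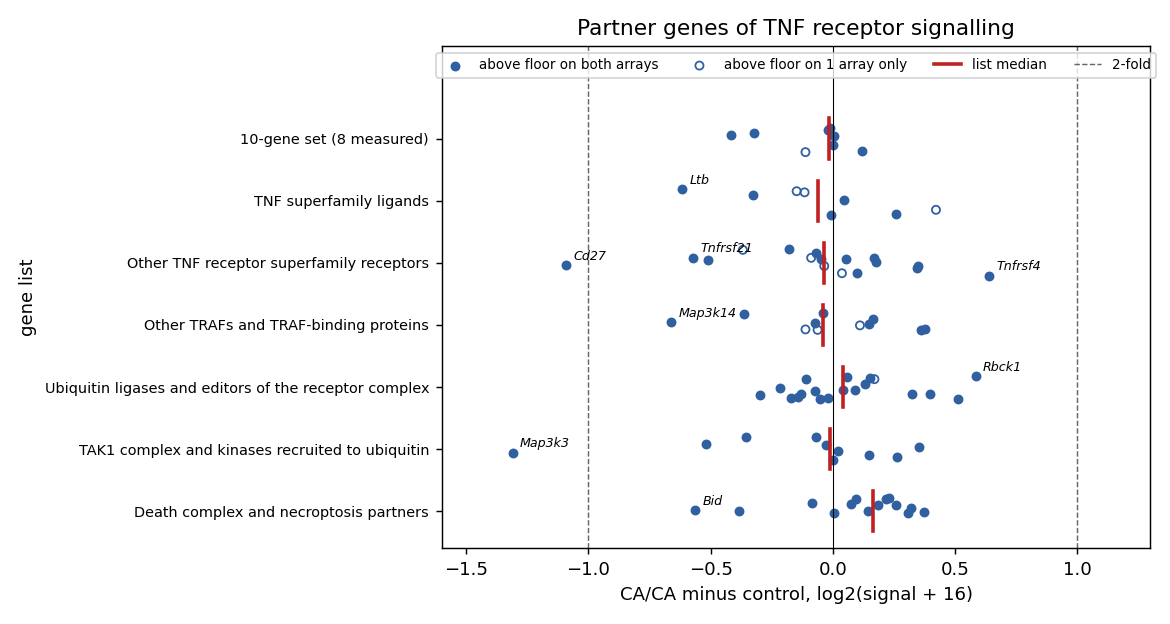
Difference CA/CA minus control in log2(signal + 16) of the measured genes of the set and of the 6 partner lists, with filled points above the floor on both arrays, open points above it on 1 array only, red bars at list medians and dashed lines at 2-fold. The medians run from -0.06 to 0.16, and Map3k3 and Cd27 are the points beyond 2-fold.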

How the data were processed

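RNA of the 2 samples was isolated with a Qiagen micro kit and amplified and labelled with an Illumina kit, per the labels' protocols. BeadStudio is named in the submitters' processing notes, with no version or normalization method in any source used here. The authors' deposited intensity values were linear. Their sorted columns differed by at most 0.0022 in log2, and no background had been subtracted. Another table held 4 value columns whose headings match no label, and was not used. Differences were taken in log2(signal + 16).

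The background mode was taken as the centre of the narrowest range with 25% of all values. The floor was the mode plus 4 SD, the SD being 2.57 from the values below the mode, a multiple first set with these values in view. A gene was above the floor where at least 1 of its probes was. A gene above it on 1 array only was given as a fold against the higher of its dim signal and 92.0. Of the probes, 34885 had 1 symbol, 18 several and 10378 none. The array files name no genome build, and coordinates are given for RefSeq promoters only.

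The members and lists were chosen with earlier results of these data known. Named by rule were all members, Ikbkb, and in each partner list the genes beyond 2-fold and the 3 largest differences. Outside that rule, Tnf, Rnf31, Sharpin, Ube2n, Fadd, Ripk3 and Mlkl were added after their values were seen. Lta and Fasl were given as examples of genes below the floor. No gene was named for a likeness to a member, since 2 samples give 1 difference per gene. Simulated data were used to check the steps, and no detection limit for signals near background is drawn from that check. The number of arrays limits the precision. Alternatives were no offset or 50, normexp (limma 3.58.1 in R 4.3.3), subtraction of the mode, floors of 3 and 6 SD or none, the brightest or median probe, and thresholds of 1.5-fold and 3-fold. Work used Python 3.11.15, numpy 2.4.6, pandas 2.3.3 and matplotlib 3.10.9.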

Additional observations from a re-analysis of the deposited data

How the results depend on the processing

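No member above the floor on both arrays differed 2-fold under any of the 9 alternative scales, floors and probe summaries, each taken alone. Over all genes the shares under these alternatives ran from 0.60% to 5.19% higher and from 0.70% to 7.26% lower. With shares this low, counts of 0 among so few members do not set them apart. No such member reached thresholds of 1.5-fold or 3-fold on the reported scale either. That scale keeps the background, so for every member a change to 2-fold less signal above it would have missed both thresholds. Under most settings Traf1 was above the floor on 1 array only and was not counted. Subtraction of the mode set signals left below 16 units to 16. That shrinks the differences of dim genes, and it gave -0.10 for Traf1 and 0 for Traf2. Over these alternatives the median of the measured members ran from -0.07 to -0.01. Tnfrsf1a, Traf1, Traf5 and Cflar stayed below 0 and Tradd above 0 in each. All settings reuse the same 2 arrays, so a constant sign is no independent support. Traf1 and Traf5 stayed smaller in size than the probe SD of 0.24 throughout. The 2 Tradd probes had opposite signs, at -0.02 and 0.26. The range was -0.83 to -0.36 for Tnfrsf1a, with subtraction of the background mode at the low end, -0.59 to -0.12 for Cflar and 0.11 to 0.26 for Tradd. Tnfrsf1b and Traf6 had either sign, from -0.01 to 0.02 and from -0.11 to 0.07. Traf2 was not above the floor of 6 SD and could not be measured there. The medians of the ligand, TRAF-binding and TAK1 lists also had either sign, while the ubiquitin list ran from 0.00 to 0.23 and the death complex list from 0.09 to 0.32. Signals close to background limit Traf1, Traf2, Traf5 and Tnfrsf1b most. No paired analysis was possible because each group has 1 array.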
